A study of Mus musculus with 2 samples.

Results

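The ligand-gated neurotransmitter receptor subunits are the proteins that assemble into ion channels opened by GABA, glycine, glutamate or acetylcholine. They were selected by gene symbol: a probe was a member if its accession mapped, through a RefSeq gene table, to a mouse symbol of the GABA-A, glycine, ionotropic glutamate or nicotinic acetylcholine receptor families. The selection gave 58 genes with 76 probes, of 32103 genes and 39429 probes on the arrays. They comprised 19 GABA-A, 18 glutamate, 5 glycine and 16 nicotinic subunits. The set was put together with the measured ratios of these arrays known, including the large ratio of Gabra2. The ratios of all members are therefore given as a description. No p-value of a single member is printed, and counts of members past an unadjusted limma p of 0.05 are a description too. A member is called higher or lower where it was past an adjusted p of 0.05 in limma's test across all 20629 genes tested, and that call is used only as a label.

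Ureters were dissected from NMRI mouse embryos at E14.5, and total RNA was measured on 2 two-colour arrays, each pairing 1 RNA labelled Tbx2/Tbx3cDKO with 1 control RNA. The cDKO embryos carried 1 cre allele and 1 wild-type allele of Tbx18 (cre/+) and were homozygous for the floxed alleles of Tbx2 (fl/fl) and of Tbx3 (fl/fl), which places Cre recombinase in the ureteric mesenchyme, where Tbx18 is expressed. In cells whose lineage never had Tbx18 activity the floxed genes are left intact. The controls had no Cre (Tbx18 +/+) and, like the cDKO, at least 1 floxed allele of Tbx2 (fl/?) and of Tbx3 (fl/?), the other allele being unspecified. Replicate 1 was a female pair with the cDKO RNA in AlexaFluor647 (red) and the control RNA in AlexaFluor555 (green), and in replicate 2, from males, the cDKO RNA was green and the control RNA red. Sex and dye orientation therefore cannot be told apart. The labels do not say how many embryos went into an RNA, so errors measure only the spread between these 2 pairs, and the number of arrays limits the precision.

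The signals of the targeted genes did not both follow the label. Whether the Tbx2 and Tbx3 probes lie inside the deleted parts of these genes is not known. Tbx3 was lower in ureters labelled cDKO, with a log2 ratio of -1.09 ± 0.10 (SD, n = 2 pairs), but Tbx2 was higher, at 0.86 ± 0.12, so every direction below is that of the ureters labelled cDKO. All 8 listed genes of the ureteric mesenchyme and all 11 of the urothelium, the epithelium of the ureter, were well above background. The ureteric smooth muscle genes were far lower in ureters labelled cDKO, with 6 of 8 tested called lower. Across all genes 385 were called higher and 374 lower.

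GABA-A and glycine receptors are pentamers that pass chloride, and their subunit mix sets sensitivity to transmitter and drugs. Ionotropic glutamate receptors are tetramers of the AMPA, kainate, NMDA and delta classes, which pass cations, and nicotinic receptors are pentamers that pass cations when acetylcholine binds. In the brain these channels carry fast synaptic signals, and nicotinic receptors do the same at the neuromuscular junction and in autonomic ganglia. Many of the GABA-A and nicotinic genes lie in clusters on the chromosomes.

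Because a GABA-A gene cluster on chromosome 5 holds both GABA-A genes that were called, the sequence around the start of its 4 subunit genes is shown first, from RefSeq on GRCm38.p6. Each window runs from 250 bases before to 50 after the start, is written 5′ to 3′ on the gene's own strand, and has its CG dinucleotides in capitals. The windows are those of Gabrg1 (chr5:70842568-70842867, minus strand), Gabra2 (chr5:71095800-71096099, minus strand), Gabra4 (chr5:71658259-71658558, minus strand) and the first of 2 starts of Gabrb1 (chr5:71657671-71657970, plus strand).
Gabrg1: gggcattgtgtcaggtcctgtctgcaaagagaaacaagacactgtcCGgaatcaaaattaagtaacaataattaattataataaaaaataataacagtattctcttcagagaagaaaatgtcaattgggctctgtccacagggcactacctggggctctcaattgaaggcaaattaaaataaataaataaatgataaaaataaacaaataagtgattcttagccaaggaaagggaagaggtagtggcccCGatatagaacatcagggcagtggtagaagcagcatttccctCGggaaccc
Gabra2: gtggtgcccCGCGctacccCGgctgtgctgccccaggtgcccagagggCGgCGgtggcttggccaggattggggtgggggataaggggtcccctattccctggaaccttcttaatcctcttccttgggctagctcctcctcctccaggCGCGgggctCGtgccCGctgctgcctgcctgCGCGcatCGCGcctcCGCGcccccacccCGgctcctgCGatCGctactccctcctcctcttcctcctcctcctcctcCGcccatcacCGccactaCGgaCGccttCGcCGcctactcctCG
Gabra4: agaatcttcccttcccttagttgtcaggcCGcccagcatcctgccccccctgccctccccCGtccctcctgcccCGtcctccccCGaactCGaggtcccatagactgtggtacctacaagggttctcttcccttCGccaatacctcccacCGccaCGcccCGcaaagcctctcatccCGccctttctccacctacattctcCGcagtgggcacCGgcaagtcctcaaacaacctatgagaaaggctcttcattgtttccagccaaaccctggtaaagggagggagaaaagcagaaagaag
Gabrb1: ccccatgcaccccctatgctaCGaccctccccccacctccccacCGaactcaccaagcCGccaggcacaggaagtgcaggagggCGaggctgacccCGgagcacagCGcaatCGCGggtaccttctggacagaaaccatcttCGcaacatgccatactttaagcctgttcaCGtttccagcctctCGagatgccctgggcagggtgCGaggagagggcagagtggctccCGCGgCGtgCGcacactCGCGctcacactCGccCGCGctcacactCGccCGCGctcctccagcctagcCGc

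The Gabra2 window and the window at the first start of Gabrb1 each held 25 CG dinucleotides, against 12 for Gabra4 and 3 for Gabrg1, beside a median of 11 over 46 subunit windows and of 7 over 32851 promoter windows of the same length. The GC content was 70.0% for Gabra2 and 66.0% for the first start of Gabrb1, against 58.7% for Gabra4 and 38.3% for Gabrg1, and the median was 58.8% over the subunit windows and 52.7% over all windows. The second start of Gabrb1 had 9 CG dinucleotides and 50.3% GC, fewer than Gabra4, so the order of these genes depends on the start taken. The window of Grik4, the gene called lower, had 42 CG dinucleotides and 70.0% GC. The starts of Gabrb1 and Gabra4 lie 387 bases apart and face each other, so the annotated transcripts overlap at their 5′ ends. The T-box core GGTGTG, the letters that T-box proteins such as Tbx2 and Tbx3 recognise, was searched on both strands. It was in none of the 4 windows, in 8 of 46 subunit windows (17.4%, from 41 genes matched by symbol) and in 19.0% of all windows. The longer form GGTGTGA, which contains the core, was in 1 subunit window, that of Chrna7, and in 3.98% of all windows. A missing match says only that these letters are not in these windows.

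Detection came first. A gene was taken as measured where over 0.5 of the 4 spots of a probe were well above background in both RNAs labelled cDKO or in both control RNAs. Of the 58 subunit genes, 31 passed (53.4%), against 20629 of all 32103 genes (64.3%). The kainate class passed with all 5 genes. Of the AMPA class 3 of 4 passed, of the GABA-A alpha class 4 of 6, of the NMDA class 3 of 7, of the nicotinic class 7 of 16 and of the glycine class 1 of 5.

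**Figure D1:**
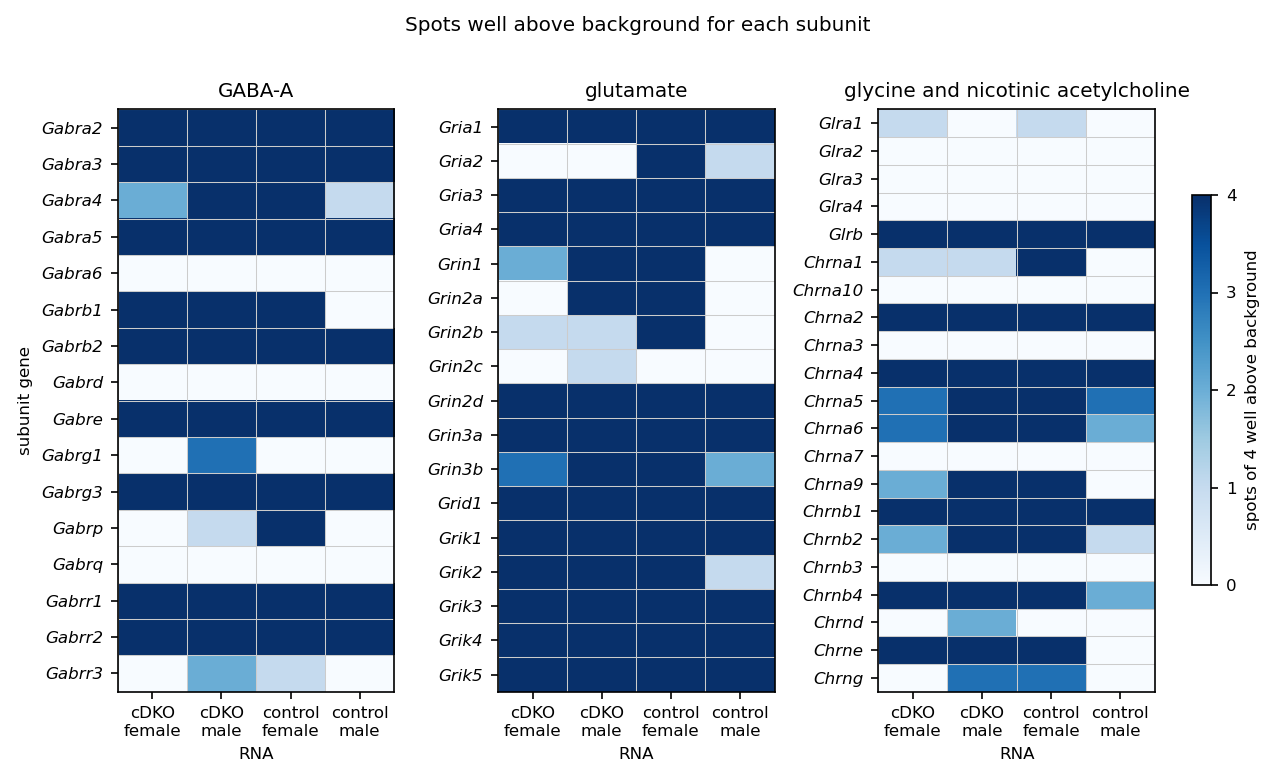
Number of spots, of 4, that were well above background in each RNA (columns, cDKO left of control) for the brightest probe of each of 54 subunit genes (rows), where a probe that passed the filter takes precedence. Kainate subunits are dark in nearly every column, the glycine alpha subunits are pale in all, and most rows that differ between columns are dark in the male cDKO and female control RNAs, which carried the green dye.

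Several obligatory or defining partners fell on the failing side. Grin1, the subunit that every NMDA receptor needs, did not pass on either of its probes, while Grin2d, Grin3a and Grin3b did. The 4 glycine alpha subunits Glra1, Glra2, Glra3 and Glra4, which bind the transmitter, were not well above background in any RNA, while Glrb, the subunit that tethers the receptor to gephyrin, passed. Of the GABA-A gamma subunits Gabrg3 and Gabrg1, Gabrg3 passed and Gabrg1 did not. Gria2, the AMPA subunit that makes the channel impermeable to calcium, failed on both of its probes, while Gria1, Gria3 and Gria4 passed.

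Several nicotinic subunits known from muscle, ganglia or brain were not detected by this rule. The skeletal muscle subunits Chrna1, Chrnd and Chrng failed, and Chrnb1 and Chrne, which serve the same receptor, passed. Chrna3, the alpha subunit typical of autonomic ganglia, was not well above background in any RNA, whereas its cluster neighbours Chrna5 and Chrnb4 passed. Chrna7, Chrnb3 and Chrna10 were also not well above background.

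Detection also differed with the dye. The number of subunit genes well above background was 31 in the female cDKO RNA (red) and 39 in the male cDKO RNA (green), against 41 in the female control RNA (green) and 25 in the male control RNA (red). Over all genes the shares were 64.2% and 68.7%, against 68.1% and 61.6%. Of the 27 genes that failed, 11 had an RNA well above background, in green alone for all 11, and 16 had none. The 11 were Gabra4, Gabrg1, Gabrp, Gria2, Grin1, Grin2a, Grin2b, Chrna1, Chrna9, Chrnb2 and Chrng, and 7 of them were above background in both green RNAs on 1 probe. Besides subunits named above, Gabra6, Gabrd, Gabrq, Gabrr3 and Grin2c were not well above background in any RNA. The 6 genes that passed through the cDKO RNAs only, namely Gabrb1, Chrna6, Chrnb4, Chrne, Grik2 and Grin3b, each missed the mark in the male control RNA. A probe that passes through 1 condition alone favours a difference in that direction, so counts over the 31 genes are not counts over all subunits.

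Among the 31 subunit genes measured, 3 were called higher in ureters labelled cDKO, beside 1.87% of all genes, and 1 was called lower, beside 1.81% of all genes (4 in either direction, beside 3.68%). The genes called higher were the GABA-A subunits Gabra2 and Gabrb1 and the AMPA subunit Gria1, and the gene called lower was the kainate subunit Grik4. Since this contrast was known when the set was put together, nothing is read from these counts. The median log2 ratio was 0.00091 over the 31 subunits and -0.0021 over all genes tested. Within 0.2 of no change lay 23 of the 31 subunits, beside 18170 of all 20629 genes tested. In whole-tissue RNA, a change in the number of cells of a type and a change in RNA per cell cannot be told apart.

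**Figure D2:**
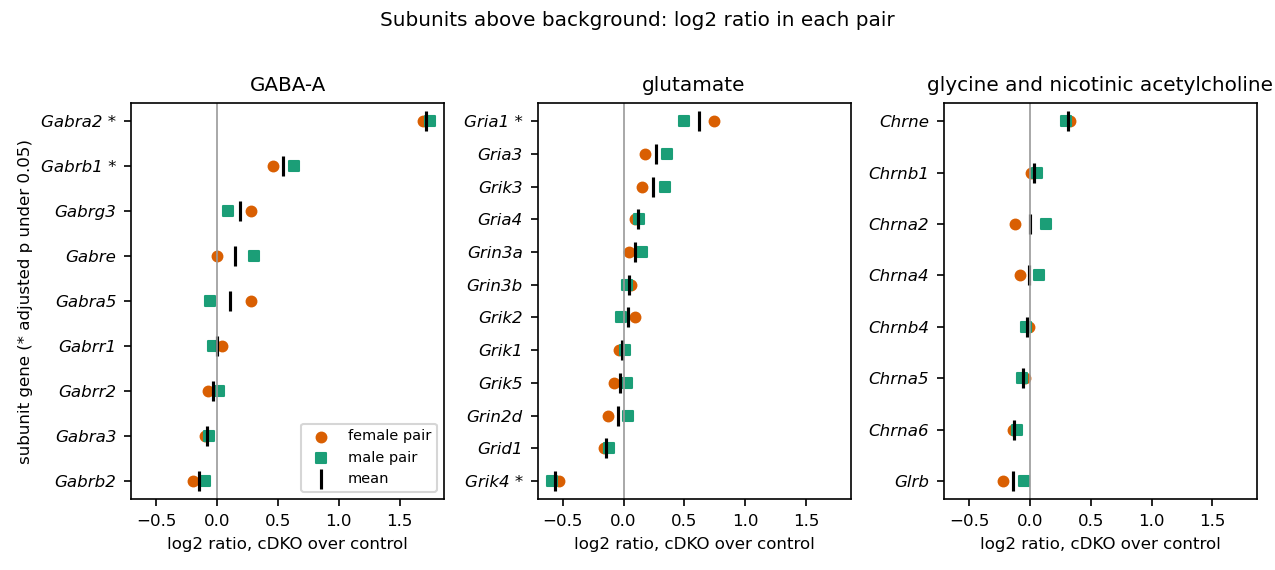
Log2 ratio of cDKO over control (x axis) in the female pair (circles) and the male pair (squares), with the mean as a bar, for 29 subunit genes that passed the detection filter, in 3 panels by receptor class. Gabra2 stands at 1.72, Gabrb1 and Gria1 at 0.54 and 0.62, Grik4 at -0.56, and the others shown between -0.15 and 0.31.

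Gabra2 encodes the alpha2 subunit, which takes part in the binding sites for GABA and benzodiazepines and is common in the embryonic brain. Its normalized log2 intensity was 9.63 in the female and 9.64 in the male ureters labelled cDKO, against 7.94 and 7.89 in the female and male controls. The RNAs of each genotype lay close together, and the groups were far apart. Its log2 ratios were 1.69 (females) and 1.75 (males), with a mean of 1.72 ± 0.042 (SD, n = 2 pairs), which is 3.30-fold. All 4 RNAs were well above background. Gabra2 was called under each of 11 alternatives, with ratios between 1.72 and 2.17.

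Gabrb1, a beta subunit that completes the GABA-binding site with an alpha subunit, had log2 intensities of 7.66 and 7.67 in female and male ureters labelled cDKO, against 7.20 and 7.04 in controls. The groups did not overlap, but the male control was not well above background, so the gene passed only through the cDKO RNAs. Its log2 ratios were 0.46 (females) and 0.63 (males), a mean of 0.54 ± 0.12 (SD, n = 2 pairs), or 1.46-fold. Taken from the scanner's own processed signals the ratio was 1.14, and from the deposited values 1.11, and with median centring the call ended.

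The chromosome 5 cluster lists, in order, Gabrg1, Gabra2, Cox7b2, Gabra4 and Gabrb1. Gabrg1 did not pass: on its brighter probe the intensities were 6.73 and 6.88 in ureters labelled cDKO, against 6.41 and 6.52 in controls. Of those 4 RNAs, the male cDKO RNA alone was well above background. That probe had log2 ratios of 0.32 and 0.36 and the dimmer probe 0.031 and 0.0023, so the probes differed. With no filter on dim probes Gabrg1 was called higher. Gabra4, whose start faces that of Gabrb1, had ratios of -0.041 and 0.071 and did not pass, with 1 array above background in each genotype.

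**Figure D3:**
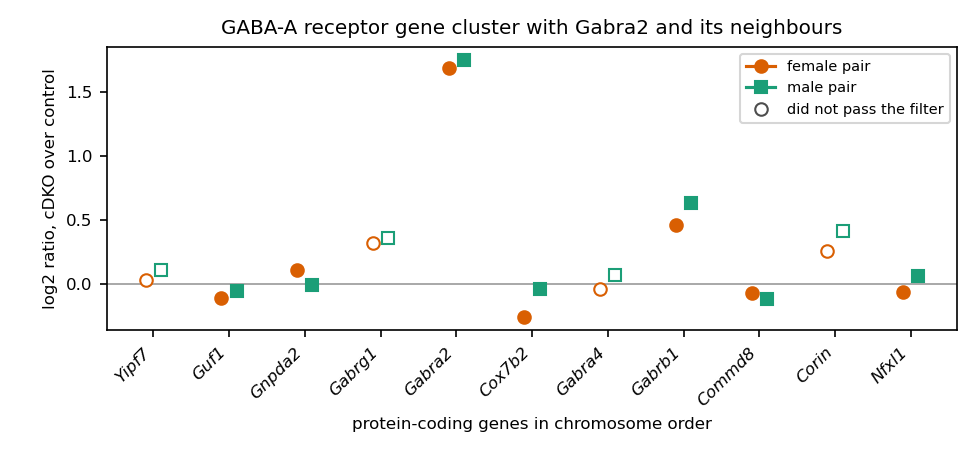
Log2 ratio of cDKO over control (y axis) in the female pair (circles) and male pair (squares) for the genes of the GABA-A cluster on chromosome 5 and 3 protein-coding genes on each side, in chromosome order (x axis, not to scale). Open symbols are genes that did not pass the detection filter. Gabra2 (1.72) and Gabrb1 (0.54) lie highest, Gabrg1 (0.34) and Corin (0.33) follow with open symbols, and the other means lie between -0.15 and 0.072.

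Genes between and beside the cluster members were not called. Cox7b2, which lies between Gabra2 and Gabra4 and encodes a cytochrome c oxidase subunit, had a mean log2 ratio of -0.15. On one side Gnpda2 was at 0.049 and Guf1 at -0.084, and on the other side Commd8 was at -0.096 and Nfxl1 at -0.0018. Corin, a protease that activates natriuretic peptides, was at 0.33 but did not pass the filter, and neither did Yipf7.

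The other clusters held no called gene. In the chromosome 11 cluster Gabrb2 was at -0.20 and -0.10 in the female and male pair, while Gabra6 did not pass. In the chromosome 7 cluster Gabrg3 was at 0.28 and 0.092 and Gabra5 at 0.28 and -0.061. On the X chromosome Gabre was at 0.0015 and 0.30 and Gabra3 at -0.10 and -0.070, and Gabrq did not pass. In the nicotinic cluster on chromosome 9 Chrna5 was at -0.042 and -0.064 and Chrnb4 at -0.0068 and -0.033. The rho subunits Gabrr1 and Gabrr2, known from the retina, had means of 0.00091 and -0.030.

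Gria1, the AMPA subunit GluA1, had log2 intensities of 9.22 and 9.40 in female and male ureters labelled cDKO, against 8.48 and 8.89 in controls. The groups did not overlap, and both pairs moved the same way, the female pair further. The log2 ratios were 0.74 (females) and 0.50 (males), a mean of 0.62 ± 0.17 (SD, n = 2 pairs), or 1.54-fold. Taken from the scanner's own processed signals it was not called, at 0.74.

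Grik4, the kainate subunit GluK4, which forms channels only together with Grik1, Grik2 or Grik3 products, had log2 intensities of 10.33 and 10.26 in female and male ureters labelled cDKO, against 10.85 and 10.85 in controls. Both cDKO values lay below both control values. The log2 ratios were -0.53 (females) and -0.59 (males), a mean of -0.56 ± 0.043 (SD, n = 2 pairs), which makes the level in ureters labelled cDKO 0.679 of the control level. With median centring the call ended, at -0.53.

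**Figure D4:**
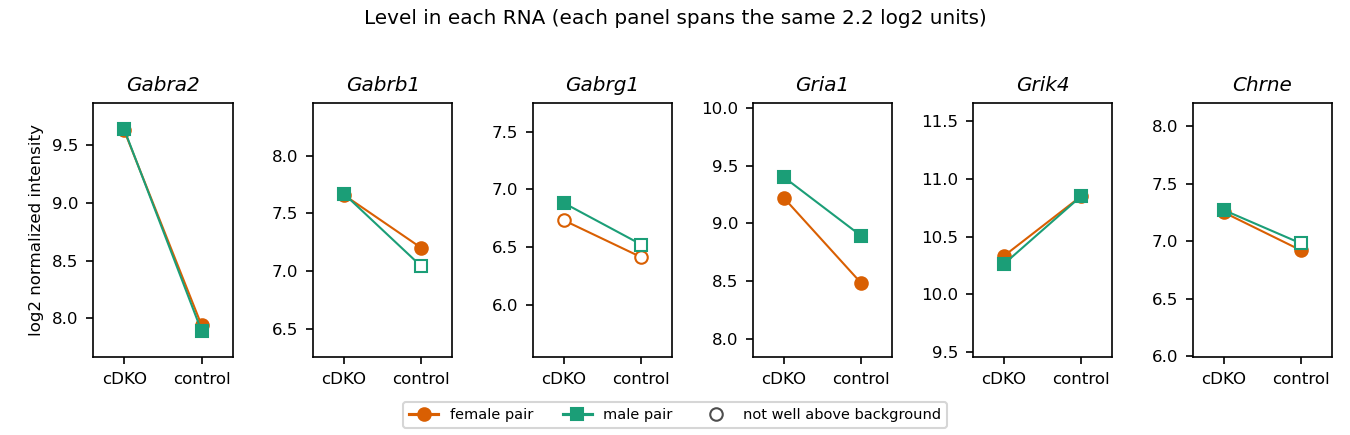
Normalized log2 intensity (y axis) in RNA labelled cDKO (left) and control (right) for 6 subunit genes, with a line joining the RNAs of the female pair (circles) and of the male pair (squares). Open symbols are RNAs not well above background. Both cDKO points lie above both control points for Gabra2 (9.63 and 9.64 against 7.94 and 7.89) and, less far, for Gabrb1, Gabrg1, Gria1 and Chrne, and below them for Grik4.

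The other glutamate subunits that were measured were not called. Among AMPA subunits Gria3 had log2 ratios of 0.18 and 0.36 in the female and male pair (mean 0.27 ± 0.12), and a dimmer probe gave a mean of 0.38, which was called when each probe was counted by itself. Gria4 was at 0.12 ± 0.027, with 0.040 from another probe. Of the kainate subunits that partner Grik4, Grik1 was at -0.013, Grik2 at 0.038 and Grik3 at 0.24, and Grik5, the other subunit that needs a partner, was at -0.026. The NMDA subunits Grin2d, Grin3a and Grin3b had means of -0.045, 0.097 and 0.046, and the delta subunit Grid1 was at -0.14.

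Among the glutamate subunits that did not pass the filter, 2 leaned towards lower values in ureters labelled cDKO. The brighter Gria2 probe had log2 intensities of 6.69 and 6.64 in ureters labelled cDKO, against 6.97 and 7.12 in controls, and of these the female control alone was well above background. The Grin2b probe with the larger ratio was at -0.51 and -0.25 in the female and male pair, again with the female control alone above background. The female control RNA carried the green dye. The other probes of these genes gave means of 0.042 for Gria2 and -0.033 for Grin2b. Both genes were called lower when no filter on dim probes was used.

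None of the 7 nicotinic subunits measured was called by limma, and 1 was past an unadjusted p of 0.05. Chrne, the epsilon subunit of the mature muscle receptor, came nearest. Its log2 intensity was 7.25 and 7.27 in female and male ureters labelled cDKO, against 6.92 and 6.98 in controls, and the groups did not overlap. The log2 ratios were 0.33 (females) and 0.30 (males), with the male control not well above background. Chrne was called higher with the processed signals (0.76), with no filter on dim probes and with an intensity trend in the variance model. The ratios of the other 6 nicotinic subunits were between -0.13 and 0.033, and Glrb, the glycine subunit measured, was at -0.14.

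For 5 subunit genes more than 1 probe passed, and the probes of each gene had mean ratios of the same sign. They were 0.15 and 0.15 for Gabre, 0.19 and 0.20 for Gabrg3, 0.27 and 0.38 for Gria3, 0.12 and 0.040 for Gria4, and 0.097 and 0.14 for Grin3a. The 4 called genes were each read by 1 probe on the array, so no other probe could be set beside them.

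Genes that make, move or anchor the transmitters and receptors were examined from 4 lists, whose background is the same 1.87% called higher and 1.81% called lower. The lists were chosen with earlier results of these data known, so their calls and p-values are given as a description. Of the glutamate list, 25 of 36 genes were tested, and 3 rose, 2 fell and 20 were not called, with a median of 0.029. Of the acetylcholine list, 15 of 18 were tested, and 3 fell and 12 were not called, with a median of -0.028. Of the GABA and glycine list, 13 of 19 were tested and none was called by limma, while at an unadjusted p of 0.05 there were 0 higher and 1 lower. Of 11 other ligand-gated channels tested, which include P2X, 5-HT3 and acid-sensing channels, none was called by limma, while at an unadjusted p of 0.05 there were 2 higher and 0 lower. The largest ratios among these were 0.23 for P2rx5 and 0.18 for Asic1.

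In the glutamate list the rises were in receptors and a receptor partner. Grm3, a metabotropic glutamate receptor coupled to inhibitory G proteins, had log2 intensities of 10.35 and 10.30 in ureters labelled cDKO, against 9.30 and 9.28 in controls, a log2 ratio of 1.03 ± 0.020 (SD, n = 2 pairs, limma adjusted p = 0.000756). Grm4, of the same kind, was at 0.83 ± 0.10 (limma adjusted p = 0.00248), while another probe, which did not pass the filter, was at -0.034. Neto2, an auxiliary subunit of kainate receptors, was at 0.83 ± 0.018 (limma adjusted p = 0.00173), and another probe gave 0.48. These 3 genes rose in both pairs.

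The falls in that list were Slc17a8 and Cbln1. Slc17a8, the vesicular glutamate transporter VGLUT3, had log2 intensities of 7.88 and 8.13 in ureters labelled cDKO, against 9.37 and 9.25 in controls, a log2 ratio of -1.31 ± 0.26 (SD, n = 2 pairs, limma adjusted p = 0.00149). A second Slc17a8 probe gave -0.13 and was not called, and the mean over both probes was -0.72. Cbln1, a secreted cerebellin that binds delta receptors in the cerebellum, was at -0.47 ± 0.15 (limma adjusted p = 0.0291), a call that ended in 3 of 11 alternatives. The other vesicular glutamate transporters Slc17a6 and Slc17a7 did not pass the detection filter.

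In the acetylcholine list Colq, the collagen tail that anchors acetylcholinesterase, had the largest fall of the list, with log2 intensities of 8.42 and 8.55 in ureters labelled cDKO, against 11.00 and 10.76 in controls. Its log2 ratio was -2.39 ± 0.26 (SD, n = 2 pairs, limma adjusted p = 0.000173) on the brighter probe and -1.01 on the other. Slc5a7, the high-affinity choline transporter, fell by 0.56 on the log2 scale (SD 0.16, n = 2 pairs, limma adjusted p = 0.0163), and Tmem35a, a chaperone of nicotinic receptors also called NACHO, fell by 0.35 (SD 0.011, n = 2 pairs, limma adjusted p = 0.0424). These calls ended in 2 and 3 of 11 alternatives. The acetylcholinesterase gene Ache did not pass the filter. Among GABA genes the synthetic enzymes Gad1 and Gad2 did not pass the filter, and the chloride exporter Slc12a5 was at -0.092 and the GABA-B subunit Gabbr2 at -0.40 ± 0.50, with ratios of -0.040 and -0.75 in the female and male pair.

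**Figure D5:**
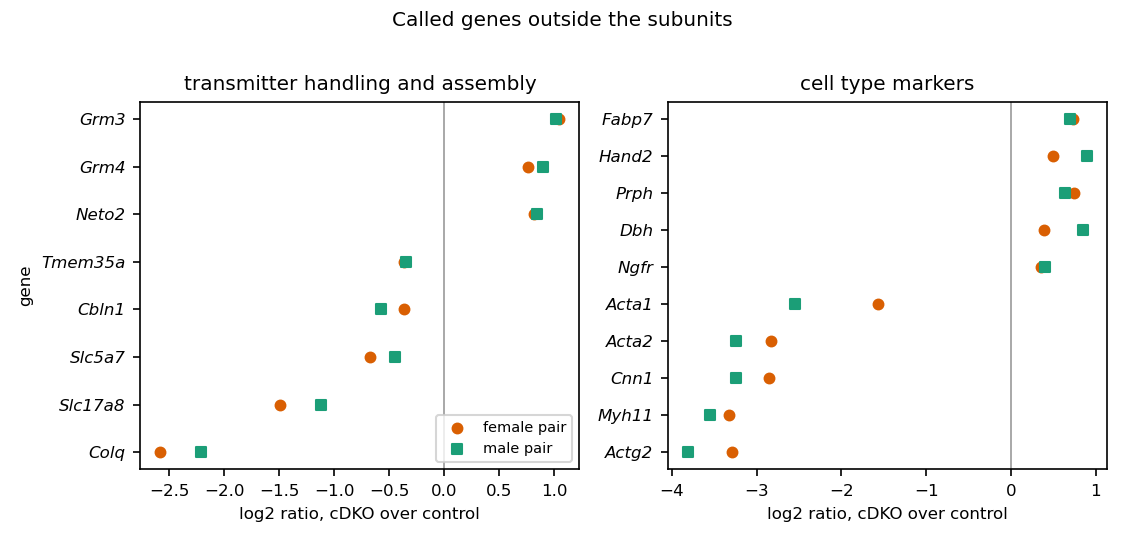
Log2 ratio of cDKO over control (x axis) in the female pair (circles) and male pair (squares) for the 8 called genes of transmitter handling and receptor assembly (left) and for called markers of neurons, glia and muscle (right). Grm3, Grm4 and Neto2 lie right of 0 and Colq and Slc17a8 left of it, neural and glial markers lie between 0.36 and 0.90, and the 4 smooth muscle markers shown at or below -2.83.

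Markers of cells that could hold these receptors were read in the same way. Their lists too were chosen with earlier results known, so nothing is read from the counts. Of 16 autonomic neuron markers, all measured, 3 rose and 13 were not called, with a median of 0.28. At an unadjusted p of 0.05, 11 of the 16 were higher and 0 lower, beside 1563 higher and 1352 lower of all 20629 genes. Prph, the intermediate filament peripherin, was at 0.69 ± 0.071 (SD, n = 2 pairs, limma adjusted p = 0.00448). Hand2 was at 0.70 ± 0.28 and Dbh, which makes noradrenaline, at 0.62 ± 0.32, calls that ended in 3 and 4 of 11 alternatives. The log2 of their summed intensity was 15.30 and 15.37 in ureters labelled cDKO, against 15.31 and 15.21 in controls, which do not separate. Of 8 glial and neural crest markers measured, of 9 listed, 2 rose and 6 were not called, with a median of 0.19, and at an unadjusted p of 0.05 there were 4 higher and 0 lower. Fabp7 was at 0.71 ± 0.023, and Ngfr at 0.38 ± 0.029, a call that ended in 3 alternatives. Their summed level was 15.72 and 15.58 in ureters labelled cDKO, against 15.61 and 15.62 in controls.

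Markers of central neurons gave little signal, since Neurod6, Slc17a7, Gad1 and Gad2 did not pass the filter and none of the 3 measured was called by limma, with 0 higher and 1 lower at an unadjusted p of 0.05. Tbr1 was at -0.30 and Rbfox3 at -0.050, and the summed level was 9.85 and 9.73 in ureters labelled cDKO, against 9.89 and 9.84 in controls. Skeletal muscle markers, which belong to the home of Chrne, had a summed level of 11.53 and 11.40 in ureters labelled cDKO, against 12.14 and 12.37 in controls. Of 8 measured, of 11 listed, 1 fell and 7 were not called. The gene that fell was the skeletal alpha actin Acta1, at -2.06 ± 0.69, a call that ended in 2 of 11 alternatives. Without Acta1 the summed level of the other 7 was 11.18 and 11.09 in ureters labelled cDKO, against 11.35 and 11.17 in controls. It was lower in the cDKO RNA of each pair, while the groups overlapped across pairs. At an unadjusted p of 0.05 the list had 0 higher and 4 lower, and Myf5, Myf6 and Ckm did not pass the filter. Smooth muscle markers had a summed level of 15.85 and 15.84 in ureters labelled cDKO, against 17.60 and 17.94 in controls. Of 8 measured, 6 fell, led by Actg2 (-3.55), Myh11 (-3.44), Cnn1 (-3.05) and Acta2 (-3.04). The part of neurons, glia and muscle in the ratios of Gabra2, Gabrb1, Gria1 and Grik4 was not tested.

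Among the remaining lists, 2 of 8 ureteric mesenchyme markers rose (Osr1 at 0.43 and Bmp4 at 0.36) and 2 fell (Foxf1 at -0.49 and Pdgfra at -0.39), and each of these calls ended in 3 or 4 of 11 alternatives. None of the 11 urothelium, 7 endothelium and 7 immune cell markers was called by limma. At an unadjusted p of 0.05 there were 2 higher and 2 lower in the urothelium, 2 higher in the endothelium and 4 higher among immune cell markers. The largest ratios were -0.29 for Upk1b and 0.27 for Upk3a, 0.32 for Egfl7 and 0.30 for Kdr, and 0.32 for Lyz2 and 0.29 for Ptprc. The part of all these cell types in the subunits' ratios was likewise not tested.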

How the data were processed

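Total RNA was measured on two-colour Agilent arrays, whose software, Agilent Feature Extraction, had version 10.7.3.1 per the submitters' processing notes. Per the file headers, the deposited data give for every spot a mean intensity and a local background in each dye, with no normalization, beside processed signals that the software had already corrected for background and dye. A deposited value table gives a signed fold per probe. The labels do not say how that table was computed. Over probes well above background its log2 values had correlations of 0.982 and 0.985 with the processed signals turned to cDKO over control, which set its direction. Its median was 1 on each array, and its floor and its centring are unknown.

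Here the mean intensity was background-corrected by normexp with an offset of 50, loess was applied within arrays, and ratios were turned to cDKO over control. Levels of single RNAs were taken after a further quantile step on average intensity between arrays (Aquantile) and are on a log2 scale. Non-uniform spots were dropped (186 and 223), no saturated spot was found, and the 4 spots of each probe were averaged, with a median SD between spots of 0.0693 and 0.0630. The filter kept 25934 probes, and the brightest probe stood for each of 20629 genes. Through RefSeq (assembly GRCm38.p6) 28322 probes received a symbol, while 11107 stayed under their array name. No source gives the build of the array design.

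limma 3.58.1 in R 4.3.3 (lmFit, eBayes, Benjamini-Hochberg) was fitted to all genes, with 1 residual and 5.24 prior degrees of freedom, so p-values lean on the pooled spread. The procedure was also run on simulated data whose spread was drawn from this fit, so that run does not bear on the calls made here. The arrays shared a slide and a scan. Members and gene lists were chosen with earlier results of these data known. Subunits called, or with a ratio of at least 0.4 in size, are given in full and those of the gene clusters by state. Of each other list up to 4 called genes with the largest change are named, or the largest 2 where none was called. Chrne, Gria2, Grin2b, Cbln1 (the fifth called gene of its list) and the neighbours of the chromosome 5 cluster were chosen after their values were seen. A few genes of the lists and their values are not reported here. Alternatives were other background, normalization, filter, probe and variance choices, the deposited values, and each replicate left out.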

Additional observations from a re-analysis of the deposited data

Results flagged for a closer look

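With 1 pair per sex, several subunits had ratios of opposite sign in the female and the male pair. These differences were not tested, and the 2 pairs differ in both sex and dye, which cannot be told apart. None of these genes was called. Male minus female, the log2 ratio differed by -0.34 for Gabra5, 0.25 for Chrna2, 0.17 for Grin2d and 0.16 for Chrna4. It differed by -0.12 for Grik2, 0.11 for Grik5, 0.090 for Gabrr2, -0.073 for Gabrr1 and 0.044 for Grik1. In total 10 of 31 subunits had opposite signs, against 9123 of 20629 genes.

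Outside the subunits, only the genes named from the lists were read for this. Among them the endothelial marker Egfl7 differed by 1.06 (female -0.20, male 0.85) and the neuronal marker Rbfox3 by -0.11. Other genes of the lists also had opposite signs, among them 3 of the 16 autonomic neuron markers.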

How the results depend on the processing

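Gabra2 kept its call and direction under all 11 alternatives other than those that leave out an array, which give a value without a test. Gabrb1 lost its call with median centring (9 of 10 passing), Gria1 with the processed signals (10 of 11) and Grik4 with median centring (10 of 11), and none of the 4 changed sign. Over all genes, 249 were higher and 214 lower with the processed signals, 114 and 128 with median centring, and 142 and 143 with the deposited values. With no filter on dim probes all 58 subunits entered, of which 5 were called higher (with Chrne and Gabrg1) and 3 lower (with Gria2 and Grin2b). Over all genes, 541 were called higher and 497 lower without that filter. With median centring 0 subunits were called lower by limma, with 1 past an unadjusted p of 0.05. Called falls among transmitter genes numbered 3 with the processed signals, 2 with median centring and 2 with the deposited values, against 5. Called rises among markers numbered 3, 2 and 2 under those settings and 11 without a filter, against 7. The causes were not tested. With each array left out, between 39 and 41 subunits were detected, since 1 array then decides. The main fit was already paired, because each array pairs the 2 RNAs of a replicate and its ratio is the unit tested. Both arrays share a slide, so no slide block could be fitted. For 27 of 58 subunits no probe passed the filter on dim probes, so their ratios were not part of the test.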
